A study of Mus musculus with 4 samples.

Results

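Natural killer (NK) cell receptors and genes of cytotoxic granules were followed in fetal liver hematopoietic progenitor cells (HPCs) that lack the B cell transcription factor EBF1. The 10 genes were *Il2rb*, *Klrd1*, *Klrk1*, *Klrb1c* and *Ncr1*, which encode receptors, and *Gzma*, *Gzmb*, *Gzmc*, *Prf1* and *Nkg7*, which encode granule proteins. Every probe that the array design assigns to one of these symbols was taken, which gave 12 of the 39429 probes. *Klrb1c* and *Nkg7* had 2 probes each, and the other genes had 1. All 12 were well above background on all 4 arrays and entered the comparison of 23732 probes.

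Lin- cells, depleted of mature blood lineages, from *Ebf1*-/- mouse fetal livers at mid-gestation were infected either with a retrovirus without an insert (MDH1-PGK-GFP, called EMPTY) or with the same vector carrying *Mir195*. The vector also expresses GFP, and its insert was amplified from DNA of RS4;11, a human leukemia line. Cells were cultured on OP9, a mouse stroma line, with SCF, IL-7 and Flt3-ligand at 10 ng/mL each, and 100 ng of RNA per sample was hybridized to one-colour Agilent mouse arrays. Of the 4 samples, 2 were infected with EMPTY and 2 with *Mir195*, and all of them lacked EBF1, so that no wild-type or uninfected sample enters these values. RNA came from whole cultures without a stated sort, in which several cell types and the stroma can be present. The labels call the cells early B cells around the pro-B stage, and the levels of early B markers are given with those of the other cell types below. A probe of *Ebf1* lay between 1.85 and 2.03 on the scale defined below on all 4 arrays, and whether it lies within the disrupted part of the gene was not examined.

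NK cells kill infected or transformed cells without rearranged antigen receptors. They weigh signals from inhibitory and activating surface receptors, many of them lectin-like proteins of the Klr family, and on activation release granules that hold perforin and granzymes. IL-15, received through the beta chain shared with the IL-2 receptor, drives their growth and survival. In B cell precursors EBF1 holds down genes of other lineages, and progenitors without it keep the capacity to form NK cells, T cells and other innate lymphoid cells. Several of these genes are also used by cytotoxic T cells and innate lymphoid cells, and *Gzmb* by other blood cells too.

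The virus supplies a microRNA, a short RNA that pairs with messenger RNAs through its seed. The mature mouse sequence lies on chr11:70235062-70235082 (GRCm38.p6, plus strand), and is shown because it is the agent that separates the groups. Capitals mark the seed, bases 2 to 8, and the sequence is that of RefSeq.

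mmu-miR-195a-5p: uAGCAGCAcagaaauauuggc

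Each member was read by a probe of 60 bases at a single spot. The middle 30 bases, positions 16 to 45 as the array design lists them, are given for the members with the largest differences between arrays and for *Gzma*, with no base marked.

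*Gzmb*: ctaatgctagtcatcattaatagctcccta
*Gzmc*: actacaagaagcaaactagatcctgatctg
*Ncr1*: acagattaacaaattgggaatgcaggagaa
*Klrb1c*, first probe: aaaaaccatcaagagaaaaatgctgtgtgt
*Klrb1c*, second probe: tatgctgaagacagtctcttttcttgctgt
*Gzma*: ccctgtcacttctgtgtctgatcacaaata

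For 11 of the 12 probes, the longest exact run shared with a probe of another gene was 12 to 16 of 60 bases. The exception was *Gzma*, whose probe shares 54 bases with a probe named LOC100045268. That second probe read 2.05 and 2.60 with EMPTY and 1.76 and 1.60 with *Mir195*, the same order as *Gzma* below. It reads nearly the same stretch of RNA, so it repeats the *Gzma* measurement and adds no gene.

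Values are log2 signals after subtraction of the 75th percentile of the array, so that 0 is the 75th percentile and 1 unit is a 2-fold difference. A level can be compared between arrays for the same probe but not between probes. The sums of levels over marker lists given below are therefore read between arrays only. They and the share of 1 gene in a sum describe signal, and do not rank genes or cell types by amount. The arrays were alike in quality, with 23658 to 24672 probes well above background, no saturated spot and a 75th percentile between 902.5 and 1127.4 signal units. They lie on the same slide, EMPTY in the first positions and *Mir195* in the last, so position and virus cannot be told apart. Nothing states that the duplicates came from separate animals or cultures, so p-values measure the spread between these samples, which may be technical. The smallest p that an exact two-sided permutation test can reach in this design, 2 arrays per virus, is 0.333.

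No member differed between the viruses past the threshold. By limma with Benjamini-Hochberg adjustment over all tested probes, 0 of 12 member probes had an adjusted p under 0.05, and 0% of all tested probes did. At an unadjusted p under 0.05, 1 member probe was lower with *Mir195* (2.09% of all tested probes were) and 0 were higher (6.25% of all were). The log2 fold change of *Mir195* over EMPTY was below 0 for 11 of 12 member probes, against 47% of tested probes. Scaling by the median in place of the 75th percentile left 0 member probes and 33.1% of all above 0. The median over the 10 genes was -0.16, beside 0.01 for all tested probes. This median became 0.10 without EMPTY replicate 1 and -0.60 without replicate 2, so that its direction rests on which control array is used. In RNA from a mixed culture, fewer cells of a type and less RNA per cell cannot be told apart.

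**Figure D1:**
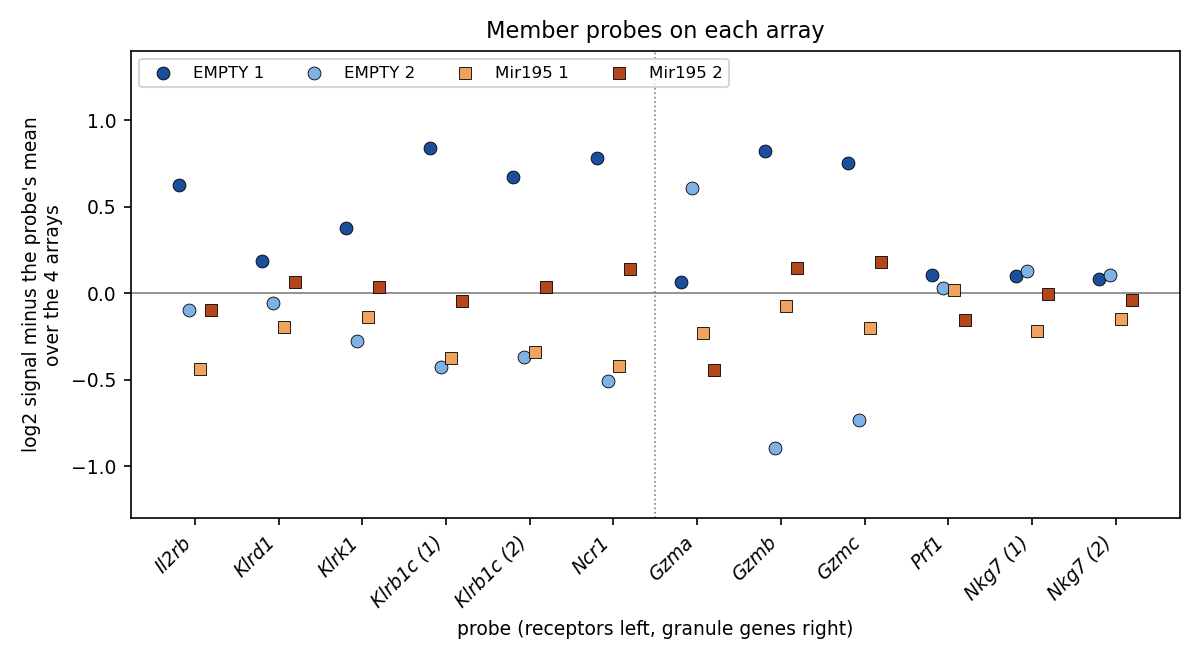
Log2 signal of each member probe on each array, as the difference from that probe's mean over the 4 arrays (y axis), with receptors to the left of the dotted line and granule genes to the right. Circles are EMPTY arrays and squares *Mir195* arrays, and (1) and (2) number the probes of a gene. EMPTY 1 is the highest array for 9 of 12 probes, and the EMPTY arrays lie apart most for *Gzmb* and *Gzmc*.

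The pattern that most members had in common was a difference between the EMPTY arrays. Of the 12 member probes, 9 were highest on EMPTY replicate 1, as were 17.7% of all tested probes, and 6 were lowest on EMPTY replicate 2, as were 18.2%. EMPTY replicate 1 exceeded EMPTY replicate 2 by at least 2-fold for 5 member probes, those of *Gzmb*, *Gzmc*, *Ncr1* and both of *Klrb1c*. This held for 181 of 23732 tested probes, or 0.763%. The opposite, EMPTY replicate 2 at least 2-fold higher, held for 0 member probes and 0.581% of all. Over all tested probes, the central 95% of the differences between the EMPTY arrays ran from -0.61 to 0.60, and 7 member probes lay above the upper value.

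**Figure D2:**
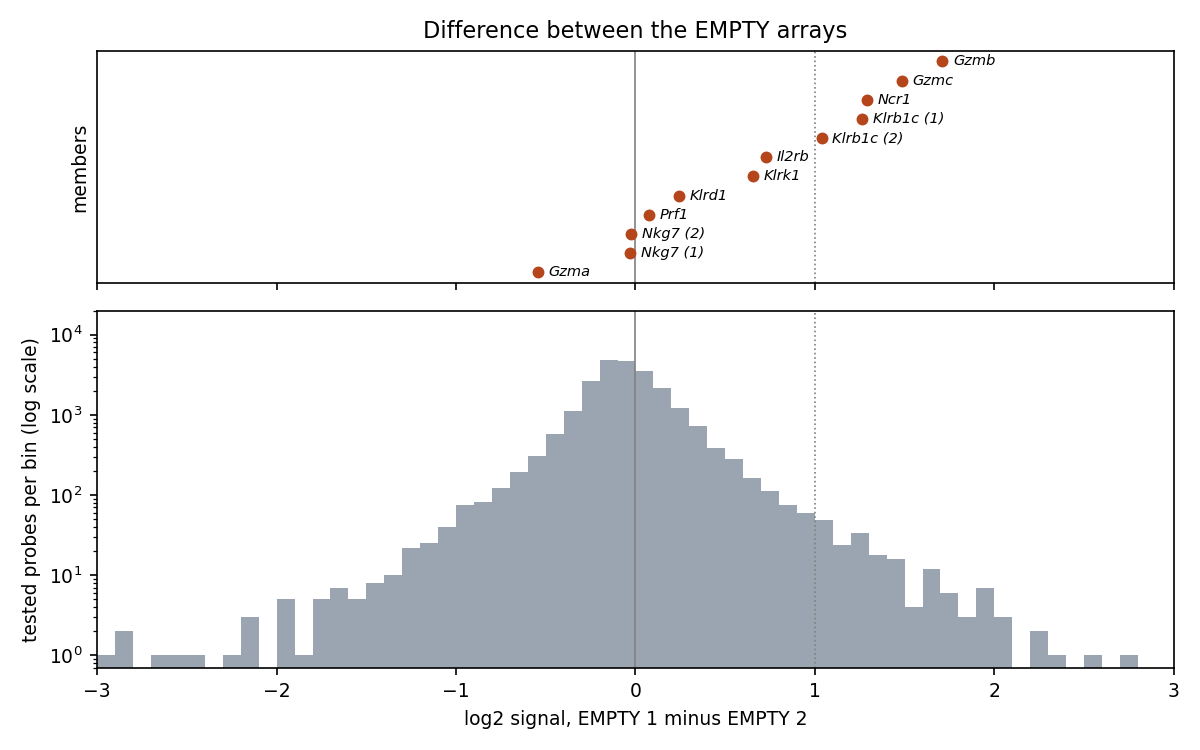
Difference in log2 signal between EMPTY replicate 1 and EMPTY replicate 2 (x axis), for each member probe in the upper panel and as a histogram over 23732 tested probes in the lower panel, whose y axis is a log scale. The dotted line marks a 2-fold difference, and the outermost bins include any probe beyond the axis. The members run from *Gzma*, left of 0, to *Gzmb*, 3.27-fold higher on EMPTY replicate 1.

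Among the receptors, *Il2rb*, the beta chain through which IL-2 and IL-15 signal, read 1.75 and 1.03 with EMPTY and 0.69 and 1.03 with *Mir195*. EMPTY replicate 1 was the high array, and the second *Mir195* array equalled EMPTY replicate 2 within the printed digits. The log2 fold change was -0.53 (SE 0.28, 95% interval -1.27 to 0.21), with an adjusted p of 0.743 by limma with Benjamini-Hochberg adjustment. It stayed below 0 without either EMPTY array, at -0.17 without replicate 1 and at -0.89 without replicate 2.

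*Klrd1* encodes CD94, the common partner of the NKG2 receptors. It read 4.19 and 3.95 with EMPTY and 3.81 and 4.07 with *Mir195*. The groups overlapped, the whole range was under 0.4 on the log2 scale, and the fold change was -0.13 (SE 0.16). *Klrk1*, which encodes the activating receptor NKG2D, read -2.25 and -2.91 with EMPTY and -2.77 and -2.60 with *Mir195*. Both *Mir195* arrays lay between the EMPTY arrays, with a fold change of -0.10 (SE 0.25) that was 0.22 without EMPTY replicate 1.

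*Klrb1c* encodes NK1.1, an activating lectin-like receptor used to recognize NK cells in some mouse strains. Its first probe read -2.24 and -3.50 with EMPTY and -3.45 and -3.12 with *Mir195*. The second probe, on another stretch of the transcript, read 0.29 and -0.75 with EMPTY and -0.72 and -0.35 with *Mir195*. Both probes placed the arrays in the same order, EMPTY replicate 1 first and EMPTY replicate 2 last, with the *Mir195* arrays between them. EMPTY replicate 1 exceeded EMPTY replicate 2 by 2.40-fold on the first probe and by 2.05-fold on the second. The log2 fold changes between viruses were -0.41 (SE 0.44) and -0.30 (SE 0.38), and both were 0.22 without EMPTY replicate 1.

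*Ncr1* encodes NKp46, a receptor largely restricted to NK cells and some innate lymphoid cells. It read -1.74 and -3.03 with EMPTY and -2.95 and -2.39 with *Mir195*. EMPTY replicate 1 again stood highest and EMPTY replicate 2 lowest, 2.45-fold apart. The fold change of -0.28 (SE 0.47, 95% interval -1.51 to 0.96) became 0.37 without EMPTY replicate 1 and 0.0046 without *Mir195* replicate 1.

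The granzymes did not all share an order. *Gzmb*, a protease that starts cell death in the target, gave 3147 and 879 signal units with EMPTY and 1356 and 1615 with *Mir195*. On the log2 scale these were 1.48 and -0.23, and 0.59 and 0.81. EMPTY replicate 1 was 3.27-fold above EMPTY replicate 2, the widest gap between the control arrays of any member, and the *Mir195* arrays lay between them, 0.22 apart. The fold change was 0.07 (SE 0.57, 95% interval -1.42 to 1.57), and -0.026 with median scaling. Leaving out EMPTY replicate 1 gave 0.93, and leaving out EMPTY replicate 2 gave -0.78.

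*Gzmc*, a further granzyme encoded in the same cluster on chromosome 14, gave 10688 and 3487 signal units with EMPTY and 4416 and 5890 with *Mir195*. On the log2 scale it read 3.24 and 1.76 with EMPTY and 2.29 and 2.68 with *Mir195*. The order of the arrays was that of *Gzmb*, with EMPTY replicate 1 2.80-fold above EMPTY replicate 2. The fold change was -0.02 (SE 0.51), or 0.0021 with the percentile over detected probes, 0.72 without EMPTY replicate 1 and -0.76 without EMPTY replicate 2. For both genes the interval reaches past 1 in either direction, so these arrays exclude neither a 2-fold rise nor a 2-fold fall.

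*Gzma*, a granzyme with trypsin-like specificity, went against that order. It gave 5389 and 7171 signal units with EMPTY and 3509 and 3100 with *Mir195*. On the log2 scale it read 2.26 and 2.80, against 1.96 and 1.75. Both *Mir195* arrays lay below both EMPTY arrays, and EMPTY replicate 2 was the higher control. The fold change was -0.67 (SE 0.22, 95% interval -1.25 to -0.10), the most negative of the members, with an unadjusted p of 0.0303 and an adjusted p of 0.554 by limma with Benjamini-Hochberg adjustment. This is the member counted above at the unadjusted threshold. Without EMPTY replicate 1 the value was -0.95 and without EMPTY replicate 2 it was -0.40, and across all 15 alternatives it kept its direction and its lowest adjusted p was 0.169.

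*Prf1*, perforin, forms the pores through which granzymes enter. It read -1.28 and -1.36 with EMPTY and -1.37 and -1.54 with *Mir195*. *Nkg7*, a membrane protein of the granules, read 2.43 and 2.46 with EMPTY and 2.11 and 2.32 with *Mir195* on its first probe. The second *Nkg7* probe read 3.31 and 3.33 with EMPTY and 3.07 and 3.19 with *Mir195*. For these genes the EMPTY arrays differed by less than 0.08 on the log2 scale, and both *Mir195* arrays were lower on all 3 probes. The differences were small, with fold changes of -0.14 (SE 0.13) for *Prf1* and of -0.23 (SE 0.13) and -0.19 (SE 0.12) for *Nkg7*, and adjusted p-values of 0.879, 0.779 and 0.800 by limma with Benjamini-Hochberg adjustment. Counting *Gzma*, 4 member probes had both *Mir195* values below both EMPTY values, as did 14.4% of all tested probes. None had both *Mir195* values above both EMPTY values, which 23.4% had.

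**Figure D3:**
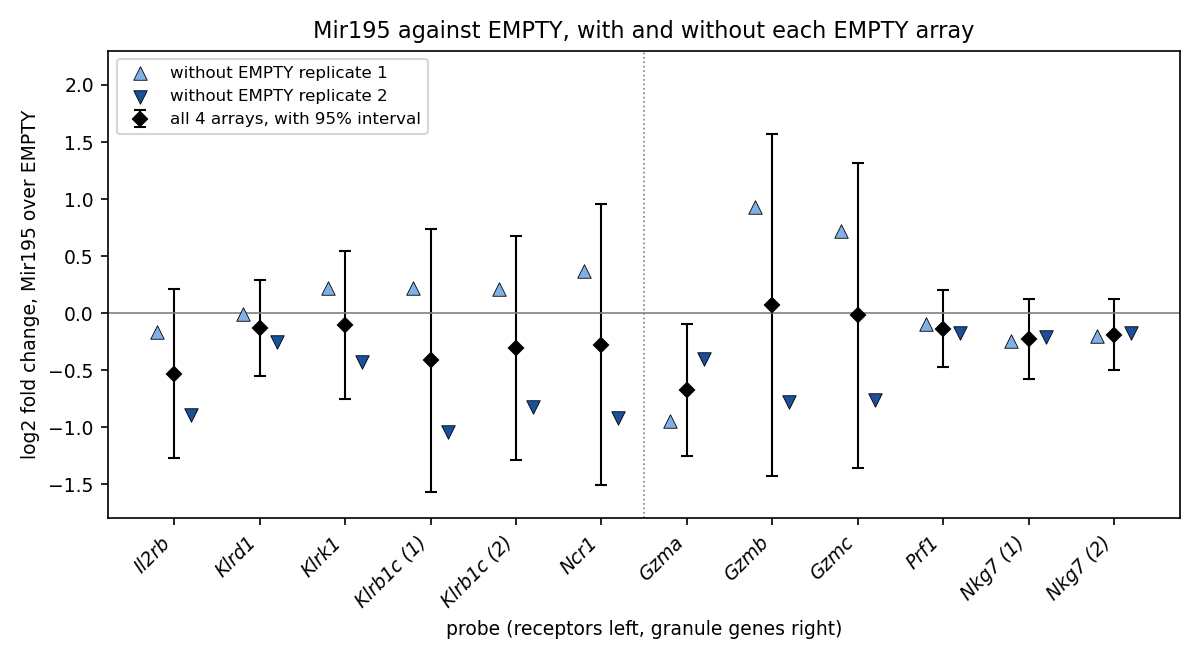
Log2 fold change of *Mir195* over EMPTY (y axis) for each member probe. Diamonds with bars are the estimate over 4 arrays and its 95% interval from limma, and triangles are the estimates with EMPTY replicate 1 (light, pointing up) or EMPTY replicate 2 (dark, pointing down) left out. For *Klrk1*, *Klrb1c*, *Ncr1*, *Gzmb* and *Gzmc* the triangles fall on opposite sides of 0, while those of *Il2rb*, *Klrd1*, *Gzma*, *Prf1* and *Nkg7* fall on the same side.

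The starts of 8 members were in the RefSeq table of promoters (GRCm38.p6), and those of *Il2rb* and *Klrd1* were not found in it. The 250 bases before the listed start are given for the genes whose probes differed at least 2-fold between the EMPTY arrays. Capitals mark short motifs found on either strand, TGTGGT for RUNX factors, AGGTGT for T-box factors and GGAAGT for ETS factors, chosen as textbook motifs of factors active in cytotoxic lymphocytes. TATAAA, the core of the TATA box, was searched as well. The *Gzmb* window is chr14:56262335-56262584 (minus strand), the *Gzmc* window chr14:56234658-56234907 (minus), the *Ncr1* window chr7:4337465-4337714 (plus) and the *Klrb1c* window chr6:128788642-128788891 (minus). The *Gzmc* window lies inside the annotated span of the gene, chr14:56231397-56241647, and the bases before the outer end of that span were not searched.

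*Gzmb*: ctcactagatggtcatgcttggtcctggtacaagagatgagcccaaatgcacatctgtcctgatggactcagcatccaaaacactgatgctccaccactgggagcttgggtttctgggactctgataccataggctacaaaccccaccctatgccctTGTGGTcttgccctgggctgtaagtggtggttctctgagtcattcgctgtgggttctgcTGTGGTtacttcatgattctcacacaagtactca
*Gzmc*: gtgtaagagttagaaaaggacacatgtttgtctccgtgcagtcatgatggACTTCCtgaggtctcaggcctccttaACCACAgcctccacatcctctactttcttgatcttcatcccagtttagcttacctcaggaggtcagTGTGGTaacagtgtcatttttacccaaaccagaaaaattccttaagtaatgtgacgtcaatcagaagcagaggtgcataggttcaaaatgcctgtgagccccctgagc
*Ncr1*: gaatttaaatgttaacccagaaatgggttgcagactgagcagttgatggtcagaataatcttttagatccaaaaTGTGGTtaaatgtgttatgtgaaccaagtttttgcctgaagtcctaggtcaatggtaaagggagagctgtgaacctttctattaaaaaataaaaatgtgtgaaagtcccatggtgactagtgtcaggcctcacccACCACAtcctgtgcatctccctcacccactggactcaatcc
*Klrb1c*: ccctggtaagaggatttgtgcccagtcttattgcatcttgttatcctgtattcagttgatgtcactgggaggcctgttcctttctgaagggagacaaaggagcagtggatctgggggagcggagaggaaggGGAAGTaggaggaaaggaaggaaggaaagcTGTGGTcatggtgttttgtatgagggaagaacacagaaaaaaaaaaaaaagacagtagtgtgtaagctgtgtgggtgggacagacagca

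The RUNX motif was in 8 of 8 member windows and in 14.0% of 32851 windows of the table. *Gzmb*, *Gzmc* and *Ncr1* each held it at 2 places, and the other 5 genes at 1. It was present in genes with unequal control arrays and also in *Gzma*, *Prf1* and *Nkg7*, whose arrays had other orders. The T-box motif was in 3 of 8 windows, those of *Gzma*, *Prf1* and *Nkg7*, and in 11.8% of all. The ETS motif was in 3 of 8, those of *Klrb1c*, *Gzmc* and *Prf1*, and in 19.7% of all. No member window held TATAAA, which 12.4% of all windows did. These are matches of letters, and binding was not measured on the arrays. Member windows were 1 per gene, the first listed, while the 32851 windows were not reduced to 1 per gene.

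Genes of the same pathways were read from lists taken from textbook knowledge. The 7 lists named 93 genes, of which 91 were on the array and 75 were tested with 94 probes. By limma with Benjamini-Hochberg adjustment none had an adjusted p under 0.05 (lowest 0.530), and at an unadjusted p under 0.05, 6 of the 94 probes were lower and 1 was higher with *Mir195*, beside 2.09% and 6.25% of all tested probes. Of the 75 genes, 57 had a fold change below 0 and 18 above it, with a median of -0.14 beside 0.01 for all tested probes. EMPTY replicate 1 was the highest array for 45 of them, beside 17.7% of all tested probes. It exceeded EMPTY replicate 2 by at least 2-fold for 7, beside 0.763% of all tested probes. These 7 were 5 genes of the Klr list and 2 adaptors or other surface molecules, with 0 in each other list. Without EMPTY replicate 1 the median fold change of the 75 genes was -0.02.

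The Klr family was the list closest to the members. Of 22 genes on the array, 15 were tested, 13 were highest on EMPTY replicate 1 and 5 were at least 2-fold above EMPTY replicate 2, with a median difference between the EMPTY arrays of 0.73 (0.69 for the members and -0.06 for all tested probes). The median fold change was -0.32 over all arrays, 0.12 without EMPTY replicate 1 and -0.76 without EMPTY replicate 2. The highest fold change was that of *Klra1*, an inhibitory Ly49 receptor, which read -1.18 and -0.55 with EMPTY and -0.60 and -1.07 with *Mir195*. *Klra8*, the activating receptor Ly49H, had the lowest, and read -3.24 and -3.28 with EMPTY and -3.48 and -5.23 with *Mir195*. Its fold change was -1.10 (SE 0.58, adjusted p 0.739 by limma with Benjamini-Hochberg adjustment), -0.22 without *Mir195* replicate 2 and -0.38 with normexp background correction. *Klra2*, *Klra10* and *Klrh1* were not well above background on any array.

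Among adaptors and other surface molecules, 11 of 13 tested genes were lower and 2 higher, with a median of -0.17 (-0.08 and -0.36 without EMPTY replicate 1 and 2). *Cd244*, a receptor of the SLAM family, stood at the top with 0.04 (SE 0.14). *Tigit*, an inhibitory receptor for nectins, stood at the bottom with -0.86 (SE 0.31, adjusted p 0.582 by limma with Benjamini-Hochberg adjustment), and it was lower on both *Mir195* arrays. With normexp background correction it was -0.15, and it was -0.43 or -1.29 without EMPTY replicate 1 or 2. Among other granzymes and granule cargo, 6 of 9 were lower and 3 higher, with a median of -0.10 (-0.02 and -0.18 without EMPTY replicate 1 and 2), from -0.35 (SE 0.24) for *Serpinb9*, an inhibitor of granzyme B, to 0.04 (SE 0.12) for the protease *Ctsl*. Of the neighbours of *Gzmc* in its gene cluster, *Gzmd*, *Gzmf*, *Gzmg* and *Gzmn* were not well above background on any array. *Gzme*, chosen after its values were seen, was so on all 4, and read -4.70 and -5.70 with EMPTY and -5.45 and -4.92 with *Mir195*.

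In the machinery of granule release, all 7 genes were tested with 9 probes, and the brightest probe of each had a fold change below 0, with a median of -0.06. A second, dimmer probe of *Lyst*, a regulator of granule size, was higher at 0.42 (SE 0.12, unadjusted p 0.0185, adjusted p 0.530 by limma with Benjamini-Hochberg adjustment), while the brighter gave -0.02, so that the probes of this gene disagreed. *Rab27a*, a GTPase that docks granules, was nearest to 0 at -0.00028 (SE 0.14), and lay above 0 with quantile normalization (0.016). *Vamp7*, a fusion protein, read -0.32 and -0.28 with EMPTY and -0.48 and -4.60 with *Mir195*, so that the second *Mir195* array stood far below the other 3.

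Of 8 death ligands and effector cytokines, 6 were lower and 2 higher, with a median of -0.36 (-0.21 and -0.54 without EMPTY replicate 1 and 2). At an unadjusted p under 0.05 by limma, 3 probes were lower, those of *Ccl5*, *Xcl1* and *Tnfsf10*, and 0 higher. Over all tested probes these shares were 2.09% and 6.25%. *Ccl5*, the brightest of the list, had a fold change of -0.56 (SE 0.12, adjusted p 0.530 by limma with Benjamini-Hochberg adjustment). It was -0.53 and -0.59 without EMPTY replicate 1 and 2. *Ccl4*, a chemokine, had the highest fold change at 0.27 (SE 0.25). *Fasl*, which triggers death through Fas, had the lowest at -0.57 (SE 0.22), and was lower on both *Mir195* arrays. With normexp it was -0.27. Partners of the IL-2 and IL-15 receptors and the receptors of IL-12, IL-18 and IL-21 had 6 of 13 lower and a median of 0.03, which was -0.16 without EMPTY replicate 2 and -0.10 without *Mir195* replicate 2. They ran from -0.59 (SE 0.31) for *Il2ra*, the alpha chain of the IL-2 receptor, to 0.23 (SE 0.14) for *Il15ra*, that of the IL-15 receptor. Of 10 transcription factors of NK development, 7 were lower and 3 higher, with a median of -0.15 (-0.0056 and -0.23 without EMPTY replicate 1 and 2). *Eomes*, a T-box factor of NK maturation, read -0.35 and -1.21 with EMPTY and -1.66 and -1.35 with *Mir195*, a fold change of -0.72 (SE 0.32, adjusted p 0.659 by limma with Benjamini-Hochberg adjustment) that was -0.29 without EMPTY replicate 1. *Zeb2*, a repressor of transcription that acts late in NK maturation, stood highest in this list at 0.18 (SE 0.14).

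**Figure D4:**
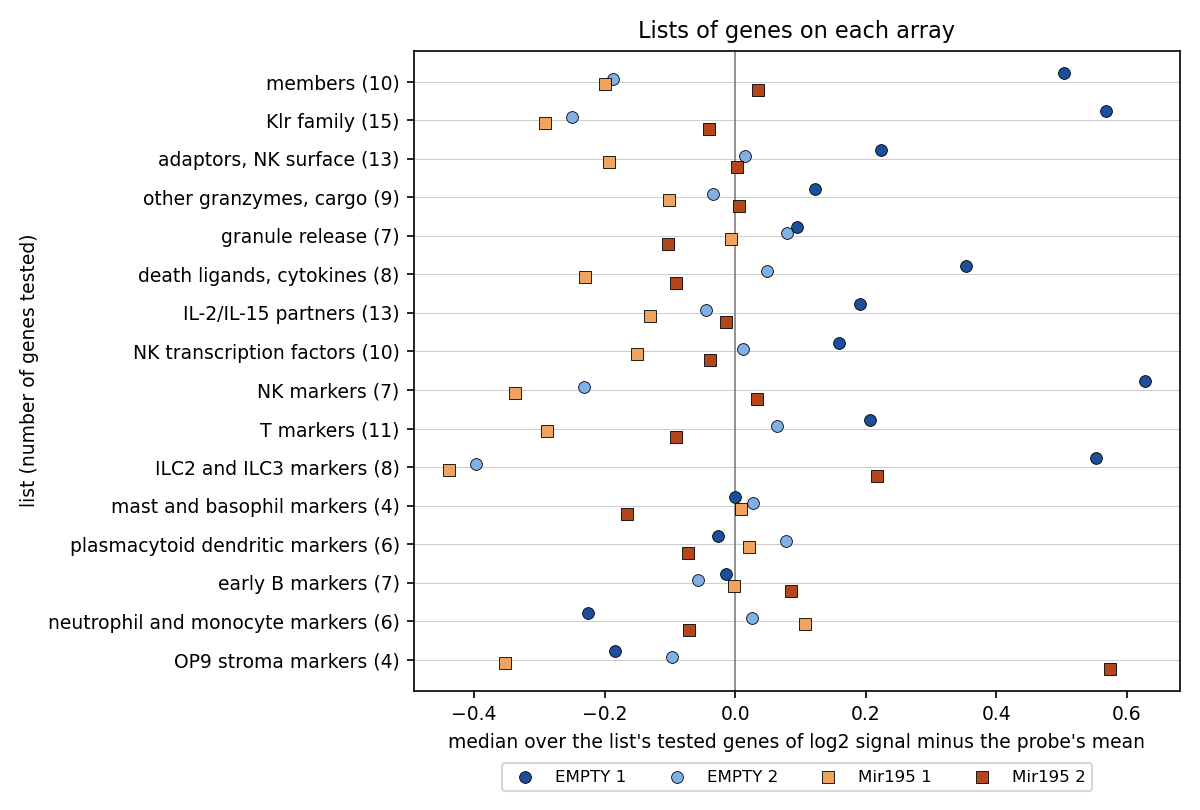
Median over the tested genes of each list of the log2 signal minus the probe's mean (x axis), for the members, the pathway lists and the marker lists (y axis, number of genes tested in brackets). Circles are EMPTY arrays and squares *Mir195* arrays. EMPTY 1 stands farthest right for the members, for all 7 pathway lists and for the NK, T and innate lymphoid markers, and not for the mast and basophil, plasmacytoid dendritic, early B, neutrophil and monocyte or OP9 markers. For granule release EMPTY 1 and EMPTY 2 lie close, at 0.095 and 0.080, and EMPTY 1 is the highest array for 2 of 7 genes. Of the 10 NK transcription factors, 4 are highest on EMPTY 1.

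Markers of cell types were read on the same arrays, and their part in the members' values was not tested. The NK markers, of which 5 are members, were well above background on all arrays for 7 of 7 genes, with levels that summed over the tested genes to 24.7 and 19.1 with EMPTY and 17.2 and 20.8 with *Mir195*, in multiples of the 75th percentile. *Klrd1* alone made up 74.0% to 81.6% of this sum, so that the median of each gene's deviation from its own mean is given as well, 0.63 and -0.23 with EMPTY and -0.34 and 0.03 with *Mir195*. Markers of innate lymphoid cells of types 2 and 3, a list that shares *Ncr1* with the members, followed the same order of arrays, with sums of 3.31 and 1.79 with EMPTY and 1.71 and 2.70 with *Mir195*. Their median deviations were 0.55 and -0.40 with EMPTY and -0.44 and 0.22 with *Mir195*. Of the 11, 7 were well above background on all arrays, and *Il13* and *Il5* were so on none. The members themselves summed to 50.7 and 40.0 with EMPTY and to 35.6 and 40.9 with *Mir195*.

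T cell markers summed to 14.88 and 13.77 with EMPTY and to 14.33 and 16.01 with *Mir195*. Of these markers, 10 of 12 were well above background on all arrays and *Themis* was so on none. At an unadjusted p under 0.05 by limma, 5 of their 14 tested probes were lower with *Mir195* and 0 were higher. Over all tested probes these shares were 2.09% and 6.25%. *Cd28* made up 40.3% to 46.8% of the T cell sum. Of the 11 tested, 6 were highest on EMPTY replicate 1 and 8 were lower with *Mir195*, with a median fold change of -0.29 and median deviations of 0.21 and 0.06 with EMPTY and -0.29 and -0.09 with *Mir195*. Plasmacytoid dendritic markers, present for 6 of 6 genes, summed to 373 and 410 with EMPTY and to 396 and 366 with *Mir195*. Mast cell and basophil markers summed to 4.00 and 4.17 against 4.42 and 4.70, and 8 of 13, among them *Fcer1a*, *Ms4a2* and *Mcpt8*, were well above background on no array. *Kit* made up 67.6% to 77.7% of this sum. Of the 4 tested genes, 2 were higher and 2 lower with *Mir195*, with a median fold change of -0.11. Neutrophil and monocyte markers summed to 7.15 and 8.10 against 9.06 and 8.19, with 6 of 8 well above background on all arrays and *S100a8* and *S100a9* on none. OP9 stroma markers summed to 3.37 and 3.53 against 2.95 and 5.59, with 4 of 7 so on all arrays and *Pdgfra*, *Lum* and *Dcn* on none. Early B markers summed to 16.17 and 14.24 against 15.03 and 17.58, and *Il7r* made up 64.6% to 68.7% of this sum. Of the 7 tested early B genes, 4 were higher and 3 lower with *Mir195*, with a median fold change of 0.05. At the same unadjusted threshold, 3 of 8 early B probes were higher with *Mir195* and 0 lower. Of 9 neutrophil and monocyte probes 2 were higher, and of 9 plasmacytoid dendritic probes 1 was, with 0 lower in both lists. Of 10 innate lymphoid probes 1 was lower, and of 4 mast cell and basophil probes 1 was, with 0 higher in both lists.

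The 5 probes of other genes nearest to the members' median profile, by Euclidean distance over the 4 centred values, lay within 0.0814 to 0.0910 of it. *Tbx21*, which encodes the T-box factor T-bet, was among them and read -0.85 and -1.54 with EMPTY and -1.502 and -1.35 with *Mir195*. The others were *Lrrc8b*, *Serpinb1c*, *Hoxa10* and a transcript without a gene symbol. The profile itself was 0.50 on EMPTY replicate 1, -0.19 on EMPTY replicate 2, -0.21 on *Mir195* replicate 1 and 0.01 on *Mir195* replicate 2. With 4 arrays the likeness rests on 4 values, and it is a description.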

How the data were processed

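The authors extracted total RNA, labelled about 100 ng with Cy3 and scanned Agilent Whole Mouse Genome arrays. Per the file headers, they deposited the intensity of each spot from Feature Extraction 9.1.3.1 (11.5.1.1 in the submitters' processing notes), with local background and spatial trend subtracted. The authors also deposited log2 values from GeneSpring, scaled to the 75th percentile of an array, which correlated at r = 0.998 with the values used here. Samples were grouped by title. Here, log2 intensity was averaged over the spots of a probe without outlier spots, and the 75th percentile of each array was subtracted. Probes that both arrays of either virus showed well above background were fitted with lmFit and eBayes of limma 3.58.1 (R 4.3.3, and data.table at version 1.17.8), two-sided, without a block, with Benjamini-Hochberg adjustment over 23732 probes and a threshold of 0.05. The fit was tested on simulated data. The number of arrays limits the precision. The members and lists were chosen with earlier results of these data known. Named are all member probes, the highest and lowest gene of each list by fold change (from its brightest tested probe) with any past the threshold, list levels, and the 5 most similar probes. Genes that a count singles out, and the motifs, lie outside this rule, and those genes were chosen after their values were seen. Alternatives covered background correction, scaling, filters, the variance model, a replicate block, the methods' t-test, the authors' table and each array left out.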

Additional observations from a re-analysis of the deposited data

How the results depend on the processing

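No member probe had an adjusted p under 0.05 by limma with Benjamini-Hochberg adjustment under any of 15 alternatives (at an unadjusted p under 0.05, 0 to 6 did). Over all tested probes 0 passed, against 3 with median scaling and 5 with the replicate number as a block. With an array left out, 0 to 904 passed, and 0 to 4 of the other lists, the most without *Mir195* replicate 1. Same-numbered arrays deviated with r = -0.10 across probes. This compares 1 difference per virus, so it cannot show whether the numbers pair the samples. The block called 0 members, and a crossed block, chosen after seeing the data, called 0 of all, members and lists. The members' median of -0.16 ranged from -0.60 to 0.10 with an array left out, above 0 without EMPTY replicate 1. Members highest on EMPTY replicate 1 numbered 9 to 11. The median of all tested probes moved from 0.01 to -0.08 with median scaling, and the share above 0 from 53.0% to 33.1%, against 64.5% with normexp. The methods' t-test gave 1134 probes at its unadjusted threshold and 0 after adjustment. Some fold changes turned sign. With median scaling *Gzmb* was -0.026, *Klra1* -0.067, *Cd244* -0.059 and *Ctsl* -0.054. *Klra1* was -0.021 with quantile normalization, *Ctsl* -0.018 with the authors' table, and *Gzmc* 0.0021 and *Rab27a* 0.021 with the percentile over detected probes. *Rab27a* was 0.013 with the authors' table and 0.016 with quantile normalization. With an array left out, *Klrk1* ranged from -0.43 to 0.22, the *Klrb1c* probes from -1.05 to 0.22 and from -0.82 to 0.22, *Ncr1* from -0.92 to 0.37, *Gzmb* from -0.78 to 0.93, *Gzmc* from -0.76 to 0.72, *Klra1* from -0.28 to 0.34, *Cd244* from -0.079 to 0.16, *Rab27a* from -0.097 to 0.097 and *Ccl4* from -0.026 to 0.57. *Klra8* (-1.97, adjusted p 0.003005) and *Vamp7* (-4.30) passed by limma only without *Mir195* replicate 1, which leaves the deviating array alone in its group. The causes were not tested. Probes near background are the least precise.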
